A study of Mus musculus with 16 samples.

Results

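Slpi, Serpinb1a, Stfa2l1 and Stfa3 encode protease inhibitors known from leukocytes, and Wfdc21 a protein of the same domain family as Slpi, and the 5 genes were followed through 16 arrays of mouse liver and of inflammatory cells from the liver. The 5 genes, of 33269 gene names on the array, were selected by name on their measured levels in the 4 groups of the study, so those levels and the differences between the groups are given as a description and not tested. The arrays, with 1 colour each, came from female C57Bl/6 mice that had become cirrhotic on an atherogenic high-fat diet of 40 weeks. One set of mice received adipose tissue-derived stem cells (ADSC), which had been cultured from inguinal fat of GFP-transgenic donor mice, in 2 injections 2 weeks apart of 100000 cells each beneath the splenic capsule, and the other set received phosphate-buffered saline (PBS). Liver and intrahepatic inflammatory cells of the ADSC mice were collected 2 weeks after the last injection, and no injection number or times are given for the PBS arrays. There were 4 arrays in each of the groups inflammatory cells ADSC, inflammatory cells PBS, liver ADSC and liver PBS. ADSC arrays carry the numbers 7 to 10 and PBS arrays the numbers 11 to 14. The labels do not tie a number to an animal, and their extraction protocol speaks of tumor infiltrates and of blood, so how these cells were purified remains unclear.

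Leukocytes carry proteases in granules and lysosomes, and protease inhibitors limit what these enzymes cut once they escape. SLPI, a secreted protein with WAP domains, and SERPINB1, a serpin of the cytosol whose mouse counterpart is encoded by Serpinb1a, inhibit the serine proteases of neutrophil granules such as neutrophil elastase and cathepsin G. Stefins are small cytosolic inhibitors of cysteine cathepsins, and Stfa2l1 and Stfa3 belong to a mouse cluster of stefin A genes. Wfdc21 encodes a small protein of the WAP domain family.

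The starts of 3 of the 5 genes are shown because the text below sets their probes beside those of their chromosomal neighbours, and because the stefin A genes resemble each other in sequence. The windows are the 250 bases before the annotated start in RefSeq for GRCm38.p6, at chr2:164356508-164356757 on the minus strand for Slpi, chr16:36156561-36156810 on the plus strand for Stfa2l1 and chr16:36455393-36455642 on the minus strand for Stfa3. Capitals mark the letters TTNNGNAA, a pattern of C/EBP factors, and GAGGAA, a pattern of the factor PU.1, each searched on both strands. Both factors are known for their part in granulocyte gene expression.
Slpi: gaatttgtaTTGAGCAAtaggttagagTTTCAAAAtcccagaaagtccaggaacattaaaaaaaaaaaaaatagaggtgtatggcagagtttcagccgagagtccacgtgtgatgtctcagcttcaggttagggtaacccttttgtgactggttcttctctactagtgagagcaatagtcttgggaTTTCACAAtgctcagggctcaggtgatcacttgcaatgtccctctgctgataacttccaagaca
Stfa2l1: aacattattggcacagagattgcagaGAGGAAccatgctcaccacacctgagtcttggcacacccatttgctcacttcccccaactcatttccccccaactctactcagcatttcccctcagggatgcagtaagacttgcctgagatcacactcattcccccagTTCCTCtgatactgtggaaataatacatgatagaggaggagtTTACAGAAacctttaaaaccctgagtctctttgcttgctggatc
Stfa3: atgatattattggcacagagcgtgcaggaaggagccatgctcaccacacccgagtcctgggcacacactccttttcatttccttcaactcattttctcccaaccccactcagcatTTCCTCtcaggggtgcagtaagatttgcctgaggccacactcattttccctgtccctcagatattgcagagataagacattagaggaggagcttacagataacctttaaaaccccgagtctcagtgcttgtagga

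The C/EBP pattern began 241, 223 and 64 bases before the start of Slpi and 44 bases before the start of Stfa2l1, and none was in the Stfa3 window. The PU.1 pattern began 224 and 86 bases before the start of Stfa2l1 and 135 bases before that of Stfa3. Over 32851 mouse promoters of this length, 36.8% held the C/EBP pattern and 23.3% the PU.1 pattern, so these matches are common and describe the letters only. TATAAA, searched in the same way and present in 12.4% of promoters, was in none of the 3 windows. When the Stfa2l1 and Stfa3 windows were aligned, 206 of 244 paired bases were identical with 12 gap positions, while the windows of Slpi and Stfa2l1 gave 145 of 198 with 104 gap positions. These windows lie outside the transcripts, and whether a stefin probe picks up transcripts of several stefin A genes was not tested.

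All levels below are log2 processed signals minus the 75th percentile of the array, so they compare a gene between arrays and not 1 gene with another. At the array's 75th percentile the signal was 123 to 553, and 51.6% to 66.3% of spots were well above background. Hepatocyte markers averaged 7.20 ± 0.21 in liver ADSC and 7.11 ± 0.42 in liver PBS, and 2.06 ± 0.70 in inflammatory cells ADSC and 1.06 ± 0.67 in inflammatory cells PBS (SD, n = 4 each). All 17 neutrophil markers on the array were well above background on every inflammatory cell array. Transcripts of exocrine pancreas were high on the inflammatory cell arrays ADSC 10, PBS 11 and PBS 13, with marker means of 8.43, 6.24 and 8.30, against -1.77 to 2.28 on the other 5, and the differences of the 5 genes and of some related genes are also given without them. Fewer cells of a type and less RNA per cell cannot be told apart in such bulk samples.

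The inhibitors of neutrophil serine proteases come first. Slpi stood at 6.10, 5.60, 5.53 and 5.63 in inflammatory cells ADSC, against 7.25, 7.35, 7.45 and 6.07 in inflammatory cells PBS. Its level was lower on average with ADSC, but PBS 14 lay within the range of the ADSC arrays. In liver it stood at 2.89, 2.61, 2.70 and 2.64 with ADSC, against 3.43, 5.72, 3.56 and 4.21 with PBS. Here the groups did not overlap, the ADSC livers lay close together, and PBS 12 stood highest. The differences, ADSC minus PBS, were -1.32 ± 0.32 in inflammatory cells and -1.52 ± 0.45 in liver (SE of the limma fit), which are levels 2.49-fold and 2.87-fold lower. With the slide or the scan day in the fit the liver difference was -0.68 ± 0.74 or -0.77 ± 0.83. The array holds a second Slpi probe that was well above background on 2 liver PBS arrays and on no other, and averaging both probes brought the difference in inflammatory cells to -0.30.

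Serpinb1a measured 3.04, 1.68, 2.25 and 2.48 in inflammatory cells ADSC, against 3.68, 4.96, 4.19 and 2.80 in inflammatory cells PBS. The PBS level of array 14 fell inside the ADSC range and the other 3 PBS arrays lay above it. Liver gave -0.36, -1.34, -0.96 and -1.09 with ADSC, against -0.00, 2.14, -0.85 and 0.51 with PBS. The liver groups overlapped through PBS 13, and PBS 12 was again the highest. Serpinb1a differed by -1.55 ± 0.44 in inflammatory cells, 2.92-fold lower, and by -1.39 ± 0.57 in liver, 2.62-fold lower. Without liver PBS 12 the liver difference was -0.82, and with the slide or the scan day in the fit it turned to 0.48 or 0.18.

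Among the stefins, Stfa2l1 had levels of 1.67, 1.08, 0.28 and 0.42 in inflammatory cells ADSC, against 4.91, 5.05, 4.84 and 3.76 in inflammatory cells PBS. The 2 groups were clearly apart, with the lowest PBS array far above the highest ADSC array. In liver ADSC it had -2.79, -3.71, -3.10 and -2.23, and the array at -3.71 was not well above background, against 0.83, 2.04, -1.95 and 1.25 in liver PBS. Every ADSC liver lay below every PBS liver, though PBS 13 came close to them. The level was 13.7-fold lower in inflammatory cells (-3.78 ± 0.37) and 11.3-fold lower in liver (-3.50 ± 0.78). With normexp background correction the liver difference was -2.37 ± 0.55, and -2.13 ± 0.52 with quantile normalization added. It was -0.84 ± 0.83 with the slide and -0.99 ± 0.70 with the scan day in the fit, and -4.33 without liver PBS 13.

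Stfa3 gave -1.90, -0.10, -0.52 and -1.13 in inflammatory cells ADSC, against 0.95, 1.41, 0.66 and -0.72 in inflammatory cells PBS. The groups overlapped through PBS 14 alone. In liver the values were -5.51, -4.47, -5.24 and -5.38 with ADSC, none of them well above background, against -3.42, -2.48, -4.36 and -3.18 with PBS, of which arrays 12 and 14 were well above background. The probe was therefore at the edge of detection in liver and was too dim to enter the fit's tests there. Stfa3 was 2.80-fold lower in inflammatory cells (-1.49 ± 0.48). In liver the processed signals gave a 3.46-fold lower mean, a size read against background, with all ADSC arrays and PBS 11 and 13 not well above it. That fold depended on the background correction, since the liver difference was -0.29 ± 0.13 with normexp and -0.48 ± 0.14 with quantile normalization added.

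Wfdc21 followed another course. In inflammatory cells it read 1.82, 2.11, 1.32 and 1.23 with ADSC, against 5.70, 6.62, 5.85 and 4.42 with PBS. These groups were far apart. In liver it read 4.71, 5.97, 5.35 and 6.06 with ADSC, against 6.59, 5.16, 6.53 and 6.40 with PBS, and PBS 12, the highest of its group for the other 4 genes, was the lowest for Wfdc21. The difference was -4.03 ± 0.42 in inflammatory cells, 16.3-fold lower, and -0.65 ± 0.40 in liver, 1.57-fold lower with overlapping groups. The liver difference was -0.38 without ADSC 7 and -0.99 without PBS 12.

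**Figure D1:**
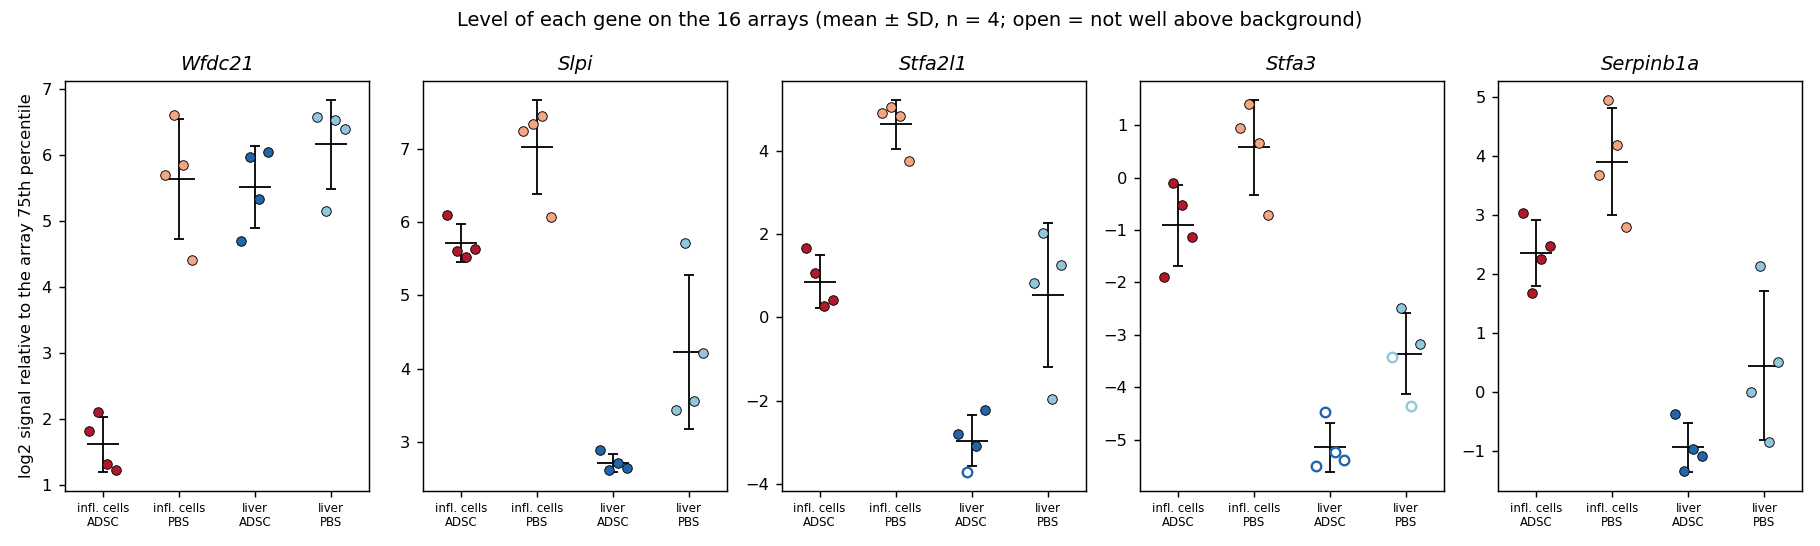
Level (y axis, log2 signal minus the 75th percentile of the array) of each of the 5 genes on all 16 arrays, by group along the x axis, with the mean and SD of 4 arrays as lines and open points for arrays where the probe was not well above background. Stfa2l1 is separated between ADSC and PBS in both sample types, and Wfdc21 stands at 1.23 to 2.11 in inflammatory cells ADSC while the other 3 groups lie between 4.42 and 6.62.

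Across the 4 groups, the levels of Slpi were ordered inflammatory cells PBS (7.03 ± 0.64), inflammatory cells ADSC (5.72 ± 0.26), liver PBS (4.23 ± 1.05) and liver ADSC (2.71 ± 0.12), all SD with n = 4. Neighbours in that order overlapped except the 2 liver groups. Serpinb1a kept the same order, at 3.91 ± 0.91, 2.36 ± 0.56, 0.45 ± 1.26 and -0.94 ± 0.41, and each group overlapped with the next. Stfa2l1 too ran in this order, at 4.64 ± 0.59, 0.86 ± 0.64, 0.54 ± 1.74 and -2.96 ± 0.62, where inflammatory cells ADSC and liver PBS overlapped and the other neighbours did not. Stfa3 averaged 0.57 ± 0.91, -0.91 ± 0.78, -3.36 ± 0.78 and -5.15 ± 0.47, with overlap between the inflammatory cell groups only. For Wfdc21 the order was liver PBS (6.17 ± 0.68), inflammatory cells PBS (5.65 ± 0.91), liver ADSC (5.52 ± 0.63) and inflammatory cells ADSC (1.62 ± 0.42), and the first 3 overlapped.

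Set over both treatments, Slpi, Stfa2l1, Stfa3 and Serpinb1a were higher in inflammatory cells than in liver, by 2.90 ± 0.29, 3.96 ± 0.46, 4.08 ± 0.34 and 3.38 ± 0.38 on the log2 scale. The liver level of Stfa3 was well above background on 2 of 8 arrays, and its difference was 2.03 ± 0.22 with normexp and 1.73 ± 0.23 with quantile normalization added. That of Slpi was 1.54 ± 0.33 with the mean of its probes. Wfdc21 was lower in inflammatory cells, with a difference of -2.21 ± 0.31. This average over both treatments rests on inflammatory cells ADSC (1.62), since after PBS inflammatory cells (5.65) and liver (6.17) overlapped. Of the 17 neutrophil markers, 16 were called higher in inflammatory cells and 1, Lcn2, lower (-1.41). Which cells the Wfdc21 signal of liver comes from was not tested. Stfa3 was the 1 gene of the 5 whose inflammatory cell arrays all lay above all liver arrays, a pattern that 33.9% of the 22174 genes tested had. Of the 5 genes the fit called 4 higher and 1 lower, where 49.0% of all genes tested were called higher in inflammatory cells and 35.4% lower, so a call in this contrast is common.

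The median ADSC minus PBS difference of the 5 genes was -1.55 in inflammatory cells and -1.52 in liver, while over all genes tested the medians were 0.03 and 0.04. In inflammatory cells the fit called 2 of the 5 lower, Wfdc21 and Stfa2l1, at a Benjamini-Hochberg threshold of 0.05 over 20190 genes, with 1.05% of all genes called lower and 0.134% called higher. Neither was called, and no other gene was, with the slide as a block or without the 3 arrays rich in pancreas transcripts. Those 2 genes were also the ones whose ADSC arrays all lay below all PBS arrays, as did 6.64% of all genes. In liver 4 of the 5 could enter the test and 0 were called, as were 0% lower and 0% higher of 17340 genes (limma), of which 807 had an unadjusted p under the threshold. With the mean of a gene's probes in place of the brightest, 1 gene of the array was called in liver. Slpi and Stfa2l1, and the dim Stfa3, had all ADSC livers below all PBS livers, which 1.21% of the liver genes tested shared. Since these contrasts were in view when the genes were selected, none of these counts tests them.

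The ADSC difference in inflammatory cells minus that in liver was -3.38 ± 0.62 for Wfdc21. It was 0.20 ± 0.58 for Slpi, -0.28 ± 0.91 for Stfa2l1 and -0.16 ± 0.77 for Serpinb1a, each smaller than its SE. For Stfa2l1 it was -1.27 ± 0.66 with normexp and -1.40 ± 0.66 with quantile normalization added. For Slpi it was 0.98 ± 0.65 with the mean of its probes, and for Serpinb1a -1.36 ± 0.91 with the scan day in the fit, each larger than its SE. No such difference is given for Stfa3, whose liver ADSC arrays were all at background. None of the 5 was called lower in this contrast, against 0.0316% of the 22174 genes. With the scan day in the fit the median of the 5, the dim Stfa3 included, moved to -1.23, against -0.16 without it.

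The arrays were spread over 5 slides and 3 scan days. The groups shared 2 slides and 2 scan days in inflammatory cells, and within each of these every one of the 5 genes was lower with ADSC, with medians between -3.30 and -1.87. Each slide set 1 ADSC array against 1 PBS array. Scan day 2 held just the inflammatory cell arrays of these 2 slides, so its values are no separate check. Scan day 3 set 2 ADSC arrays against 1 PBS array. In liver the groups met on 1 slide and 1 scan day, where PBS 13 is the sole PBS array, and the medians were -0.84 and -0.99. There Serpinb1a was higher with ADSC by 0.48 and 0.18. Slpi (-0.68 and -0.77), Stfa2l1 (-0.84 and -0.99) and Stfa3 (-1.15 and -1.01) were lower by less than in the pooled fit, and Wfdc21 by more (-1.82 and -1.50). Without the 3 inflammatory cell arrays rich in pancreas transcripts, ADSC 7, 8 and 9 and PBS 12 and 14 remained. The 5 differences were then -3.77 ± 0.63 for Wfdc21, -0.97 ± 0.42 for Slpi, -3.40 ± 0.52 for Stfa2l1, -1.19 ± 0.75 for Stfa3 and -1.56 ± 0.68 for Serpinb1a.

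Neutrophil markers moved with these genes. The mean level of the 17 markers was 1.75 ± 0.25 in inflammatory cells ADSC and 4.81 ± 0.75 in inflammatory cells PBS, and -1.40 ± 0.50 in liver ADSC and 1.48 ± 1.37 in liver PBS (SD, n = 4 each). Their summed signal relative to the 75th percentile ranged from 407 to 612, from 1273 to 2633, from 28.3 to 69.6 and from 126 to 835 in the same order. In inflammatory cells 14 of the 17 fell with ADSC (limma, Benjamini-Hochberg), among them S100a8, a calcium-binding protein of neutrophils, by 2.80 ± 0.31, and Ltf, the lactoferrin gene of their granules, by 4.44 ± 0.49 (adjusted p = 0.0027 for each). S100a9, the partner of S100a8, also passed (adjusted p = 0.0278). In liver none of the 16 that could be tested was called, all 16 had negative differences, and 13 to 15 of the 17 were above background on the ADSC arrays, against 15 to 17 on the PBS arrays. On the slide that both liver groups shared, the marker mean was -0.74 on ADSC 7 and -0.16 on PBS 13, closer than the group means. ADSC 9, of the same scan day, had -1.92. On the 5 inflammatory cell arrays not rich in pancreas transcripts the marker means were 1.88, 2.04 and 1.59 with ADSC, against 5.69 and 3.96 with PBS. How much of the differences of the 5 genes goes with the number of neutrophils was not tested.

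The arrays at the edges of the groups were the same for the markers and for most of the genes. Inflammatory cells PBS 14 had the lowest neutrophil marker mean of its group, 3.96, and the lowest level of each of the 5 genes. Liver PBS 12 had the highest marker mean of its group, 3.14, with the highest Slpi, Stfa2l1, Stfa3 and Serpinb1a, and liver PBS 13 had the lowest, -0.16, with the lowest Stfa2l1, Stfa3 and Serpinb1a.

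Relative to the neutrophil marker mean of the same array, the genes did not keep 1 level. Stfa2l1 lay at -0.89 ± 0.47 relative to that mean in inflammatory cells ADSC and at -0.17 ± 0.41 in inflammatory cells PBS, and at -1.56 ± 0.61 in liver ADSC and -0.94 ± 0.66 in liver PBS. It was thus lower with ADSC by a little more than the marker mean, within ranges that overlapped. Slpi lay 3.97 ± 0.29 above it in inflammatory cells ADSC and 2.22 ± 0.55 above it in inflammatory cells PBS, and the same turn was seen in liver, at 4.11 ± 0.42 with ADSC and 2.75 ± 0.66 with PBS. Serpinb1a lay at 0.61 ± 0.68 and -0.91 ± 0.49 in inflammatory cells ADSC and PBS and at 0.46 ± 0.34 and -1.03 ± 0.27 in liver ADSC and PBS. Slpi and Serpinb1a were thus lower with ADSC by less than the neutrophil marker mean in both sample types, and Stfa3 in inflammatory cells. The differences of the single markers spread widely. They ran from -4.44 for Ltf to -1.44 for Csf3r in inflammatory cells, and from -4.54 for Mpo to -1.09 for Mcemp1 in liver. In inflammatory cells Csf3r, S100a9 (-1.50) and Cxcr2 (-1.52) had differences near those of Slpi, Serpinb1a and Stfa3. Stfa3 lay at -2.66 ± 0.78 and -4.24 ± 0.35 relative to the mean in inflammatory cells ADSC and PBS, and at -3.75 ± 0.84 and -4.84 ± 0.61 in liver ADSC and PBS, where it was at the edge of detection and no such comparison is drawn.

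Wfdc21 was at -0.13 ± 0.17 relative to the neutrophil mean in inflammatory cells ADSC and at 0.83 ± 0.40 in inflammatory cells PBS, against 6.92 ± 0.99 in liver ADSC and 4.69 ± 1.97 in liver PBS. In liver its level did not go with these markers. Its 4 liver PBS levels ran in the order of the hepatocyte marker means of those arrays, which were 7.45, 6.52, 7.36 and 7.09 for PBS 11 to 14. Among the ADSC livers, array 7 had the lowest Wfdc21 and the lowest hepatocyte mean, 6.88, while arrays 8 to 10 had means of 7.23 to 7.34. Array 9 broke the order, with Wfdc21 at 5.35 and a mean of 7.33, against 5.97 and 7.23 on array 8. Between the groups, liver ADSC had the higher hepatocyte mean (7.20 against 7.11) and the lower Wfdc21 (5.52 against 6.17). The order among the PBS livers was noticed after the values were seen and was not tested.

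**Figure D2:**
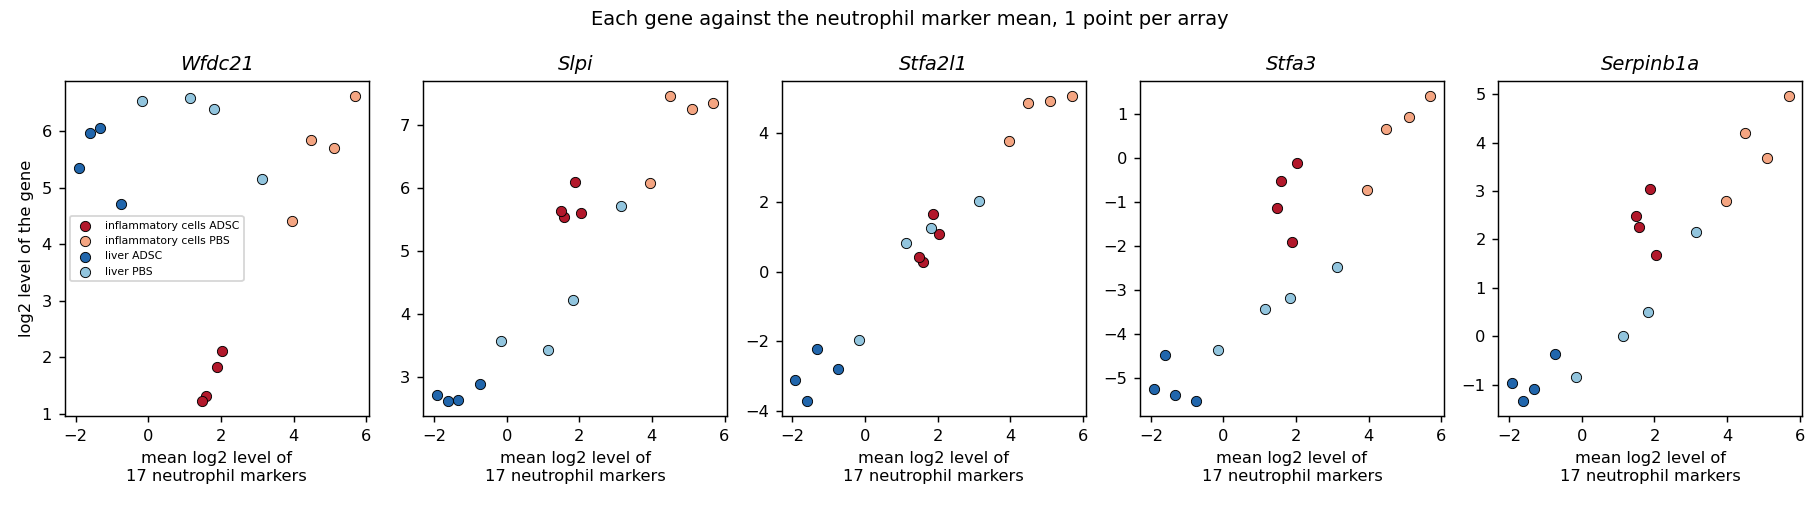
Log2 level of each of the 5 genes (y axis) against the mean log2 level of 17 neutrophil markers (x axis) on the same array, with 1 point for each of 16 arrays coloured by group. Stfa2l1 is higher on every inflammatory cell PBS array, where the marker mean is 3.96 to 5.69, than on any other, as Slpi, Stfa3 and Serpinb1a are on all but PBS 14, while Wfdc21 is high on liver arrays of both treatments whatever the marker mean.

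Other marker lists moved less or in other ways in inflammatory cells. The fit called 2 of 10 monocyte and macrophage markers, 2 of 8 Kupffer cell markers and 1 of 6 mast cell and basophil markers lower with ADSC, with median differences of -1.05, -1.50 and -0.93. Cd14, a monocyte receptor for lipopolysaccharide, fell by 1.98 (limma adjusted p = 0.0202). Lyz2, the brightest marker of that list, differed by -0.79 and was not called (limma adjusted p = 0.164). None of the 7 T cell, 7 B cell or 7 hepatocyte markers tested was called, and their medians were 0.11, 1.00 and 1.17. Nor was any of 7 cholangiocyte, 7 erythroid or 11 exocrine pancreas markers, with medians of -0.36, 0.68 and -2.76. The summed monocyte and macrophage signal was 364 to 464 in inflammatory cells ADSC and 620 to 1057 in inflammatory cells PBS.

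The other genes of the inhibitor families, and the proteases that such inhibitors act on, were taken from lists. Of 104 such genes on the array, 78 could be tested in inflammatory cells, where 11 fell with ADSC and 0 rose (14.1% called; median -0.25). At an unadjusted p under the threshold the counts were 28 lower and 8 higher, where 3724 of all 20190 genes had such a p. The 11 were 3 stefins, 1 WAP domain gene, all 4 neutrophil serine proteases, 2 serine proteases of basophils and 1 cysteine cathepsin. Among the neutrophil proteases, Prss57 passed the background filter through the PBS arrays alone. In liver 62 of the genes could be tested and 0 were called in either direction, with 9 lower and 1 higher at an unadjusted p under the threshold (limma). The count of 11 fell to 0 without the 3 arrays rich in pancreas transcripts and with the slide as a block, where no gene of the whole array was called either, to 7 without inflammatory cells PBS 12 and to 6 without inflammatory cells ADSC 9. Without the 3 arrays the differences were -2.68 for Cstdc6, -2.65 for Csta1, -1.64 for Wfdc18, -4.49 for Ctsg and -1.16 for Ctsl, each with a limma adjusted p of 0.137.

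Of the 4 other stefins tested, 3 fell with ADSC in inflammatory cells. Cstdc6, another gene of the stefin A cluster, had 0.68, 0.78, -0.13 and 0.11 in inflammatory cells ADSC, against 3.76, 3.86, 3.58 and 2.40 in inflammatory cells PBS, and fell by 3.04 ± 0.35 (limma adjusted p = 0.0035). Csta1, a stefin A gene next to Stfa2l1, had 1.75, 1.76, 0.90 and 1.12 in inflammatory cells ADSC, against 4.83, 4.85, 4.63 and 3.38 in inflammatory cells PBS. It fell by 3.04 ± 0.36 (limma adjusted p = 0.00378), and as with Cstdc6 the groups were far apart. Csta2 fell by 1.97 ± 0.33 (limma adjusted p = 0.0201). Cstb, the stefin B gene of most cell types, differed by -0.91 ± 0.25 and was not called (limma adjusted p = 0.127). In liver Cstdc6 and Csta1 differed by -3.50 ± 0.82 and -3.31 ± 0.81 and neither was called (limma adjusted p = 0.748 and 0.816), while Cstb differed by 0.03 ± 0.16. Of the 9 further stefins in the list 4 had a probe by name, and Stfa1 and Stfa2 were not analysed here.

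Away from the stefins, no cystatin passed. Ahsg and Fetub, fetuins made by hepatocytes, differed by 1.05 ± 0.47 and 0.86 ± 0.45 in inflammatory cells, and Cst3, the secreted cystatin C, by -0.55 ± 0.30 (limma adjusted p = 0.271, 0.328 and 0.342). The 6 cystatins tested had a median of 0.22.

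Of 8 WAP domain genes tested in inflammatory cells, Wfdc18, which lies next to Wfdc21, was the 1 that passed. It measured -1.18, -1.11, -1.19 and -0.85 with ADSC, against 0.35, 0.65, 1.86 and 0.32 with PBS, and fell by 1.88 ± 0.33 (limma adjusted p = 0.0251). The groups did not overlap. Wfdc2 and Wfdc15b differed by -1.22 ± 0.44 and -0.77 ± 0.29 and did not pass (limma adjusted p = 0.202 and 0.210). In liver Wfdc18 differed by -1.67 ± 0.64 with overlapping groups and was not called (limma adjusted p = 0.998).

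None of the 13 clade B serpins tested in inflammatory cells passed, and 10 had negative differences. Serpinb1b and Serpinb1c, close relatives of Serpinb1a beside it on the chromosome, differed by -1.61 ± 0.39 and -1.33 ± 0.39 (limma adjusted p = 0.0862 and 0.140), and Serpinb6a by -0.88 ± 0.22 (limma adjusted p = 0.0955). The plasma antiproteases, which hepatocytes secrete, had positive differences for 18 of 20 genes and a median of 0.50, and 0 passed. Serpinc1, the antithrombin gene, differed by 1.45 ± 0.44 (limma adjusted p = 0.150), Itih2 by 0.98 ± 0.40 and Serpind1, the gene of heparin cofactor II, by 1.05 ± 0.43. Hepatocyte markers, with Serpinc1 among them, had a positive median in the same arrays, as given above. In liver the plasma antiproteases had a median of -0.06 over 23 genes.

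The serine proteases of neutrophil granules, among them elastase and cathepsin G, which SLPI and SERPINB1 inhibit, fell in inflammatory cells. Ctsg, cathepsin G, had 0.39, 0.62, 0.21 and -0.40 with ADSC, against 4.47, 6.08, 4.71 and 3.72 with PBS, and fell by 4.54 ± 0.44 (limma adjusted p = 0.00251). Elane, neutrophil elastase, had -3.33, -2.90, -3.54 and -4.84 with ADSC, of which the first alone was well above background, against 1.39, 2.79, 0.03 and -0.03 with PBS. It fell by 4.70 ± 0.61 (limma adjusted p = 0.00783), a size read largely against background. The ADSC levels of both genes lay below all PBS levels. Prtn3, proteinase 3, fell by 3.06 ± 0.50 (limma adjusted p = 0.0185). Prss57, a granule protease of neutrophils, read 10.3-fold lower, a size read against background on all ADSC arrays (limma adjusted p = 0.0127). It passed the background filter through the PBS arrays alone, the group where it was higher, so its call is not read as support. In liver Ctsg differed by -3.77 ± 0.92 and Prtn3, at background on all ADSC livers, read 6.51-fold lower, and neither was called (limma adjusted p = 0.811 and 0.816).

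Of 12 other leukocyte serine proteases, Prss34 and Mcpt8, both proteases of mouse basophils, fell by 3.00 ± 0.46 and 2.39 ± 0.40 (limma adjusted p = 0.0127 and 0.0198). Mcpt8 and Cpa3, of the same list, are also among the mast cell and basophil markers. Mcpt4, a mast cell chymase, differed by 2.23 ± 0.56 and did not pass (limma adjusted p = 0.0927), and the median of the 12 was -0.01.

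Of the cysteine cathepsins, the enzymes that stefins inhibit, Ctsl had 3.72, 3.47, 3.41 and 3.69 in inflammatory cells ADSC, against 4.39, 4.75, 4.81 and 4.64 in inflammatory cells PBS. Cathepsin L fell by 1.08 ± 0.20 (limma adjusted p = 0.0327) with groups apart, a smaller step than those of Csta1, Csta2 and Cstdc6 and near that of Cstb. Ctsc, the dipeptidyl peptidase that activates granule serine proteases, differed by -1.22 ± 0.27 and Ctsb, cathepsin B, by -0.67 ± 0.21, and neither passed (limma adjusted p = 0.0611 and 0.154). Negative differences were seen for 10 of the 11 genes of this list that were tested, with a median of -0.53. The list holds Ctsa, which is a serine carboxypeptidase despite its name. In liver the differences of Ctsl and Ctsb were -0.00 ± 0.15 and 0.23 ± 0.15, and the median of 12 cathepsins was 0.04.

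**Figure D3:**
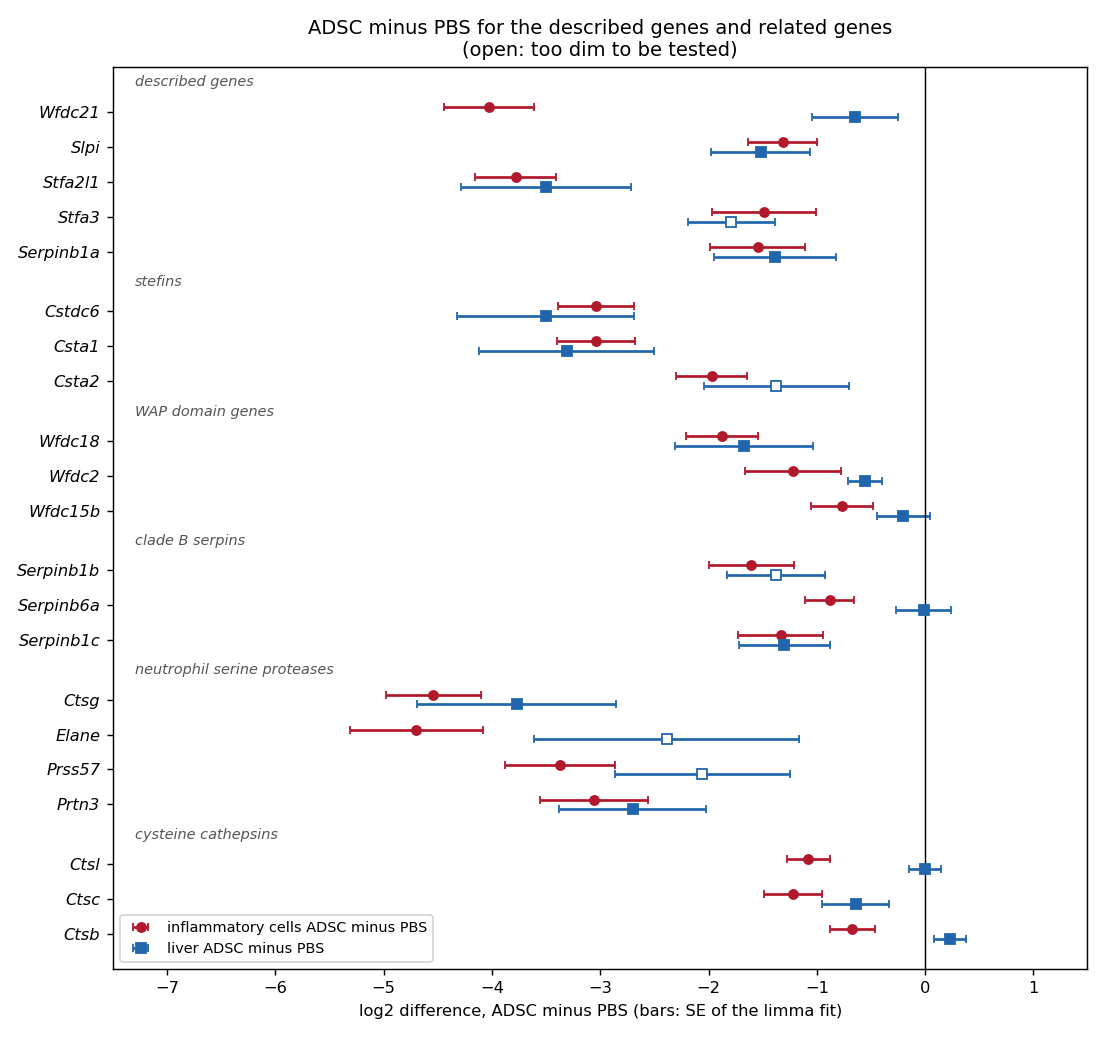
Log2 difference, ADSC minus PBS (x axis, bars are the SE of the limma fit), in inflammatory cells (circles) and liver (squares) for the 5 genes and for named stefins, WAP domain genes, clade B serpins, neutrophil serine proteases and cysteine cathepsins, with open symbols where the probe was too dim to be tested. The stefins Cstdc6 and Csta1 have differences near -3 in both sample types, and Ctsl and Ctsb lie near 0 in liver.

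The genes whose profile over the 16 arrays was most like each of the 5 were found by the root mean square difference of profiles centred on their own means, over 13229 named genes. Both treatment and sample type shape such a profile, and arrays of 1 group share them. Csta1 (0.42), Cstdc6 (0.50) and Itgb2l, a neutrophil integrin subunit (0.51), were closest to Stfa2l1, where the median over all genes was 2.88. Serpinb1c (0.30), Serpinb1b (0.39) and Bst1 (0.44) were closest to Slpi, and Serpinb1c (0.35), Clec4d, a lectin receptor of myeloid cells (0.40), and Bst1 (0.41) to Serpinb1a, with medians of 1.80 and 2.06. Slpi and Serpinb1a differed from each other by 0.44, and 3 genes were closer to either than the other was. Mgst2 (0.55), Slc2a3, a glucose transporter (0.61), and Nfe2 (0.62) were closest to Stfa3, where the median was 2.37.

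Wfdc21 had no such close match. Ppp1r42 (0.75), Pygl, the liver glycogen phosphorylase (0.83), and Tgm1, a transglutaminase (0.90), came nearest, against a median of 1.97, and the other 4 genes were 2.88 to 3.42 away. In these 3 genes the ADSC minus PBS differences were -3.51, -2.13 and -1.89 in inflammatory cells and 0.41, 0.17 and -0.17 in liver.

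The chromosomal neighbours, up to 6 protein-coding genes on each side in the RefSeq order of GRCm38.p6, were read in inflammatory cells. Beside Stfa2l1 on chromosome 16, 3 of 8 genes tested fell, and these were the stefins Csta1, Csta2 and Cstdc6, while the other 5, from Parp9 to Ccdc58, differed by -0.67 to 0.43 and did not pass. Beside Stfa3 on chromosome 16, Cstdc6 fell and the 6 tested genes of the other side, from Casr to Iqcb1, had differences of -0.03 to 0.64 with none called. Next to Wfdc21 on chromosome 11, Wfdc18 was the 1 of 9 tested genes read there that fell. The chemokine genes Ccl9 and Ccl6 on that side differed by -1.05 ± 0.25 and -1.18 ± 0.28 (limma adjusted p = 0.0769 and 0.0725). On the far side Ddx52, Synrg, Dusp14 and Tada2a differed by -0.21 to 1.02 with none called.

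Around Slpi on chromosome 2, Svs2, a gene of seminal vesicle secretion, rose by 2.42 ± 0.48 (limma adjusted p = 0.0379), and Matn4, Rbpjl, Sdc4, Sys1 and Dbndd2 had differences of -0.19 to 0.61 and were not called. Beside Serpinb1a on chromosome 13 none of 7 tested genes was called. Serpinb1c and Serpinb1b had the differences given above, and Serpinb6b and Serpinb9, which lie between them, had -0.40 ± 0.35 and -0.28 ± 0.31.

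**Figure D4:**
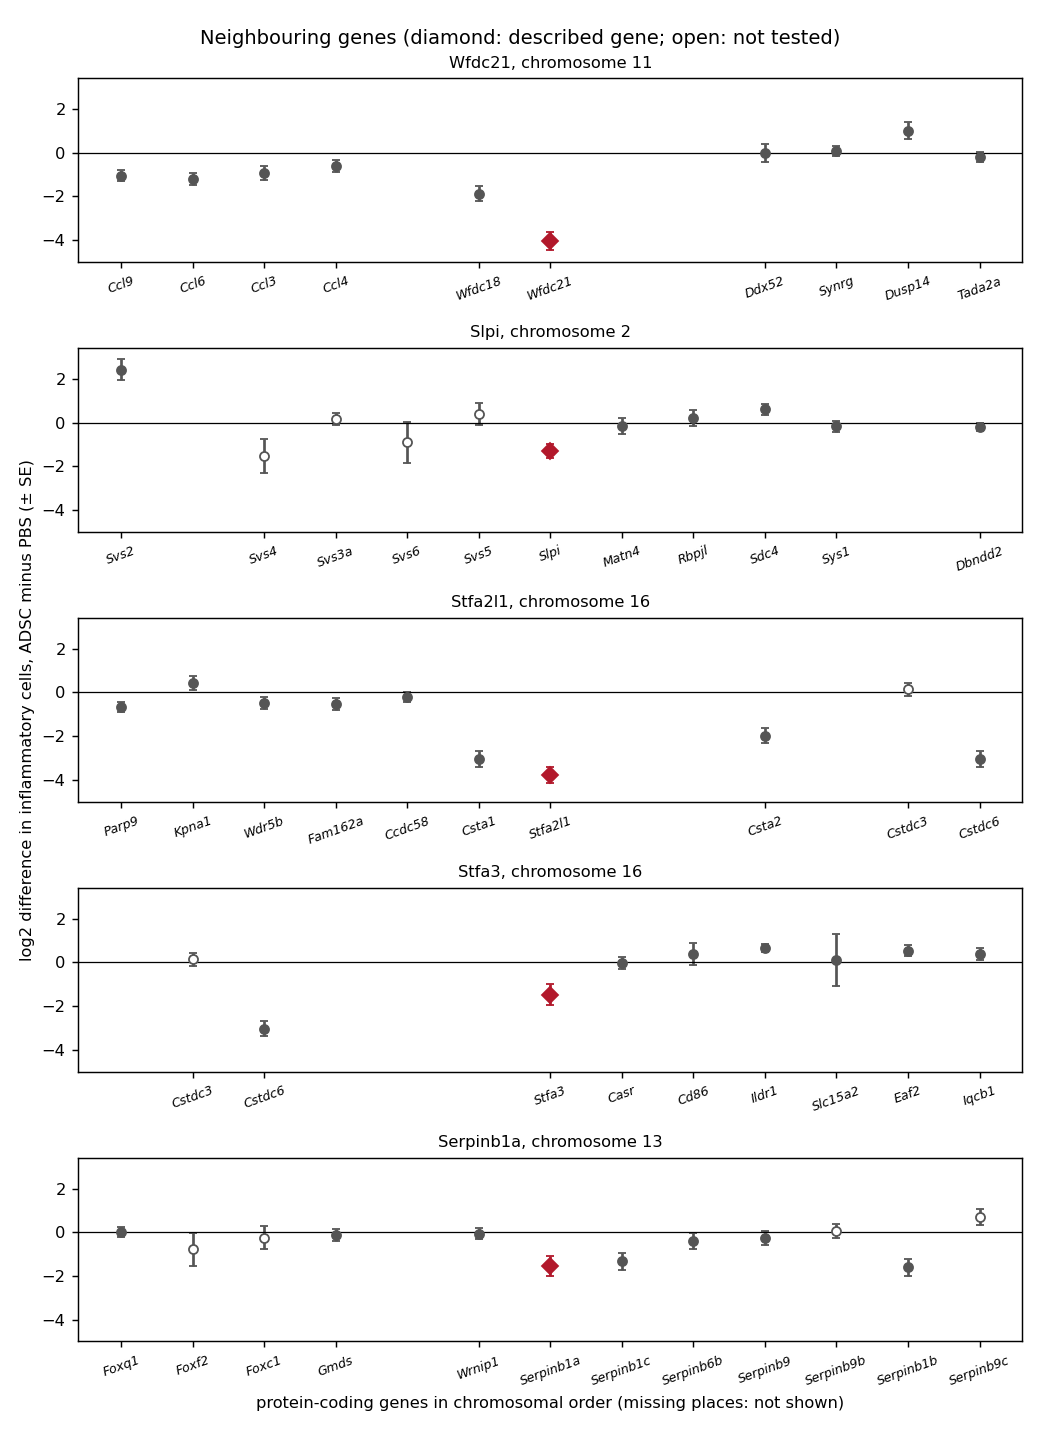
Log2 difference in inflammatory cells, ADSC minus PBS with SE (y axis), of up to 6 protein-coding neighbours on each side of the 5 genes in chromosomal order (x axis), with the gene itself as a diamond, open symbols for neighbours too dim to be tested and gaps for genes not shown. The lowest values among tested neighbours are those of the stefins Csta1 and Cstdc6 at -3.04, and Svs2 beside Slpi is the highest at 2.42.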

How the data were processed

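Total RNA labelled with Cy3 was hybridised to 1-colour Agilent arrays. The processed signal is an intensity that Agilent Feature Extraction 10.5.1.1 background-subtracted on each array, per the file headers, with no scaling between arrays. Deposited 0 or 1 flags gave, for each spot, whether it was well above background, an outlier or saturated, and the deposited value table held the same linear intensity values (relative difference 0, column medians 30.6 to 90.9, neither centred nor logged). Of 43379 spots (41174 probes), 71 to 124 outlier spots per array were left out and 0 were saturated. Log2 intensity minus the array's 75th percentile was averaged per probe. Accessions gave 23374 probes one of 16535 symbols of GRCm38.p6, 17800 probes kept the file's name, and the brightest probe stood for a gene. No columns of other samples were present (0).

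A gene had to exceed background on 4 or more arrays of a fit, and was then tested over all features with limma 3.58.1 (lmFit, eBayes) in R 4.3.3, with Benjamini-Hochberg adjustment at 0.05. ADSC was set against PBS on the 8 arrays of each sample type, and inflammatory cells against liver, and the difference of ADSC differences, on all 16. The limma step was checked on simulated data. If all arrays of a group were at background, the fold is given against the higher of its own signal and the lowest signal well above background. For Stfa3, Prss57 and Prtn3 this equalled the fold of the group means, so it is a reading against background and not a firm limit. The labels do not say that arrays are separate animals, so p-values measure the spread between these samples, and the number of arrays limits their precision. The 5 genes and all lists were chosen with earlier results of these data known. Named besides the 5 were, per inhibitor or protease list, up to 5 genes that passed in inflammatory cells. Where fewer than 3 passed, the 3 of smallest p were named. The 3 closest profiles of each of the 5 genes were named too. Of the marker lists, the brightest genes were named for neutrophils and for monocytes and macrophages, and not for the others. Ltf, Lcn2, Csf3r, Cxcr2, Mpo, Mcemp1, Cstb, Ctsa, Cpa3 and the neighbours were named outside these rules. The normexp alternative used the median spot signal, since the files used here have no mean signal column. Other alternatives were quantile normalization, the percentile over detected probes, the mean of probes, other filters, slide, scan day, the label number as a block and arrays left out. Promoters of Wfdc21 and Serpinb1a were not used. One neighbour of Wfdc21 is not reported here.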

Additional observations from a re-analysis of the deposited data

Results flagged for a closer look

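Each group of 4 arrays was searched for an array whose gap to the nearest other as a share of the group's range exceeds Dixon's critical value, which chance passes in about 1 of 20 groups. Of the 20 groups searched for the 5 genes, 3 held such an array. Wfdc21 was 5.16 on liver PBS 12, below the other 3 liver PBS arrays at 6.40 to 6.59. Slpi was 6.07 on inflammatory cells PBS 14, below the others at 7.25 to 7.45. Stfa2l1 was 3.76 on that same array, below the others at 4.84 to 5.05. The neutrophil marker mean was the highest of its group on liver PBS 12, 3.14, and the lowest of its group on inflammatory cells PBS 14, 3.96, and what part this has in the 3 values was not tested.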

How the results depend on the processing

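The median difference of the 5 genes was -1.33 to -2.18 in inflammatory cells and -0.84 to -1.53 in liver under the alternatives that kept all arrays, and leaving out 1 array in turn gave -1.92 to -1.21 and -1.82 to -1.02. Counted per gene over all alternatives, the sign held in 90 of 90 values in inflammatory cells and in 81 of 83 in liver, the exceptions being Serpinb1a with slide (0.48) and scan day (0.18). Some of the values in these counts, and in those that follow, could not change sign. The other filters and the deposited value table leave a difference as it was, as does the mean of probes for genes with 1 probe. Inflammatory cells against liver kept its sign in 128 of 128 values (median 3.16 to 3.66 with 1 array left out), and the difference of ADSC differences in 114 of 128, with a median of -0.72 to 0.43 with 1 array left out and -1.23 with scan day; the cause was not tested. Label numbers are shared by the sample types. Same-number arrays deviated together with correlations of only -0.06 to 0.17, and 3 of 8 correlated best with their own number. Such correlations cannot show whether a number marks 1 animal. The arrays were treated as sharing only a number, and pairing was not otherwise tested. In this balanced design a replicate block on the number cannot move the differences of the 5 genes or their medians of 3.38 and -0.16. It changed only the SE. For the difference of ADSC differences the SE was 0.53, against 0.77, for Serpinb1a and 0.68, against 0.62, for Wfdc21. The count of related genes that fell in inflammatory cells, 11, was 7 with no filter on dim probes (33269 genes tested), 0 with slide as a block and 0 without the 3 arrays rich in pancreas transcripts, where 26 and 22 had an unadjusted p under the threshold, and 6 to 12 with 1 array left out. Over all genes called lower, 212, the count was 324 with normexp, 118 with the percentile over detected probes, 93 with no filter, 145 with scan day, 0 with slide (5378 at an unadjusted p under the threshold) and 0 without the pancreas-rich arrays (4608), and 65 to 307 with 1 array left out. With that percentile the all-gene median was 0.16, against 0.03, and the 5 genes stayed lower. Ctsl lost its call under 10 of 18 alternatives, Wfdc18 under 8 of 18 and Csta2 under 8 of 17. Signal over background limits Stfa3, Csta2 and Elane in liver.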
